A study of Homo sapiens with 8 samples.

Results

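The comparison described here is the difference between 2 human acute myeloid leukaemia cell lines in their response to knockdown of DDX6. It was taken as the change under DDX6 shRNA in MOLM-13 minus the change under DDX6 shRNA in HEL, over all 8 RNA-seq libraries of the series in 4 groups of 2. MOLM-13 cells carried a lentiviral DDX6 shRNA or a control shRNA, and HEL cells carried a lentiviral DDX6 shRNA or a control shRNA. Every group was labelled wild type and was selected with puromycin, so the controls share the lentivirus and the selection. The HEL count columns name the hairpin as shRNA2 and the MOLM-13 columns name none. Whether both lines received the same hairpin is not given in the sources used here, and the line and the hairpin cannot be told apart. The labels do not say that replicates came from separate cultures, so p-values measure the spread between libraries, which may be technical.

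DDX6 is a DEAD-box RNA helicase that binds repressed mRNAs. With the decapping factors, LSM14A and the eIF4E transporter EIF4ENIF1, it builds processing bodies (P-bodies), cytoplasmic granules that hold untranslated mRNA, and it links the CCR4-NOT deadenylase to translational repression and decapping. MOLM-13 is a monocytic line with a KMT2A fusion and an internal tandem duplication of FLT3, and HEL is an erythroleukaemia line with erythroid and megakaryocytic features and a JAK2 mutation. In HEL, cytokine-type signalling runs from JAK2 to STAT5, and in MOLM-13 it starts at FLT3.

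Total counts were 7888318 to 8174432 in the MOLM-13 libraries and 10719829 to 12093544 in the HEL libraries. The lines matched their names. Mean FLT3 was 291 CPM (counts scaled to library size with TMM) in MOLM-13 DDX6 shRNA and 287 CPM in MOLM-13 control, against 0 and 0.242 CPM in HEL. The erythroid factor KLF1 averaged 0.329 and 0.887 CPM in MOLM-13, against 118 and 112 CPM in HEL, each with the DDX6 shRNA group before its control. HOXA9 and LYZ were likewise high in MOLM-13 and GATA1 and ITGA2B high in HEL, while HBG1 was near 0 in both. DDX6 itself (chr11:118747766-118791149, minus strand, GRCh38) had 67.9 and 74.2 CPM in MOLM-13 DDX6 shRNA libraries, against 126 and 122 CPM in MOLM-13 controls. It had 96.8 and 94.8 CPM in HEL DDX6 shRNA libraries, against 177 and 180.0 CPM in HEL controls. In both lines both DDX6 shRNA libraries lay below both controls. The fall was -0.80 ± 0.08 on the log2 scale in MOLM-13 and -0.90 ± 0.07 in HEL (SE), to 57.4% and 53.8% of control. The difference, 0.09 ± 0.11, was not called by edgeR's quasi-likelihood test (adjusted p = 0.636).

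The response to DDX6 shRNA differed between the lines at 2495 of 16499 genes tested. A gene was called where edgeR's quasi-likelihood test of the difference gave a Benjamini-Hochberg adjusted p under 0.05. The difference was positive, so that the gene moved higher in MOLM-13 than in HEL, at 1242 genes (7.53%) and negative at 1253 (7.59%). Its median over all genes tested was -0.03 on the log2 scale. Within each line, DDX6 shRNA raised 2981 genes (18.1%) and lowered 2358 (14.3%) in MOLM-13, and raised 3417 (20.7%) and lowered 2322 (14.1%) in HEL. These within-line calls serve below to define the opposite movers, to say in which line a called difference arose and to describe gene lists.

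Genes well expressed in both lines, with a mean of at least 10 CPM over the 4 libraries of each line, numbered 8358. Of these, 866 (10.4%) had a called positive difference and 945 (11.3%) a called negative one. The 1811 calls fall into classes by what the gene did within each line. In 110 and 82 genes the change was called in both lines with opposite signs. In 319 it was called in both with the same sign and differed in size: 145 rose more in MOLM-13, 66 rose more in HEL, 68 fell more in MOLM-13 and 40 fell more in HEL. A further 646 were called in MOLM-13 and 601 in HEL alone, which does not show that the other line did not change, and 53 were called in neither line. Differences of at least 1 on the log2 scale were found in 93 well expressed genes on the positive side and 37 on the negative side. Over all genes tested the split at that size was closer, 370 positive and 269 negative. The limit of 10 CPM is a mean over both groups of a line, so a gene near 0 in one group can pass it through the other; with the mean of every group at 10 CPM or above, 59 and 23 genes were left at that size.

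**Figure D1:**
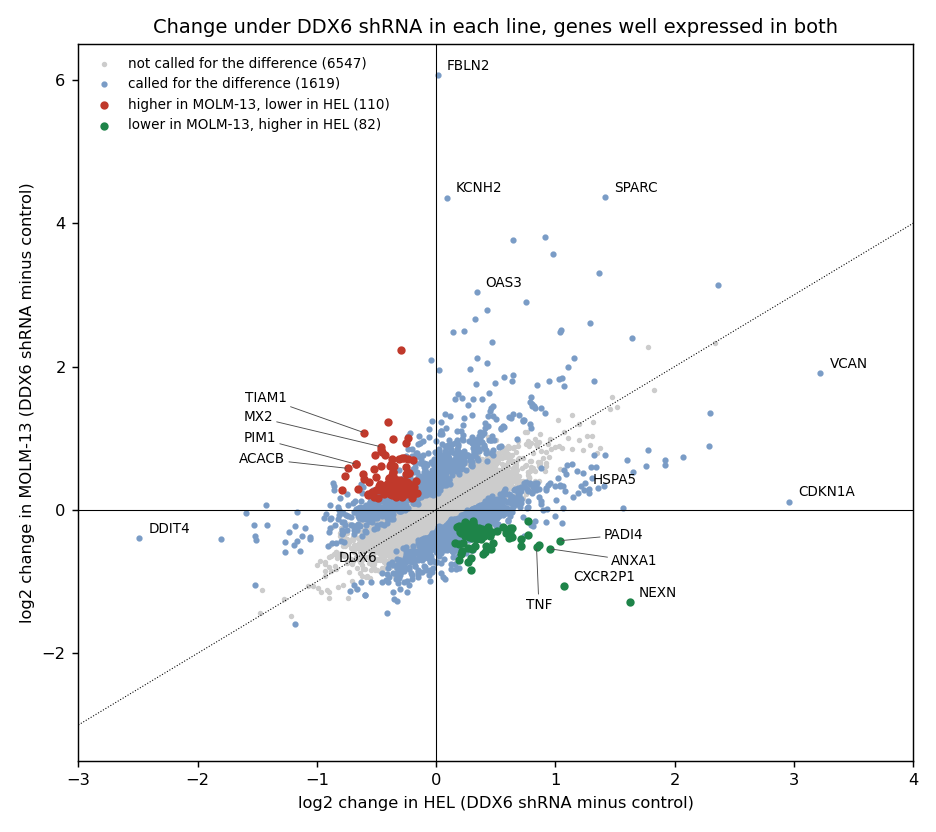
Log2 change under DDX6 shRNA in MOLM-13 (vertical axis) against that in HEL (horizontal axis) for the 8358 genes well expressed in both lines, with the dotted line marking equal change. Genes far from the dotted line are called for the difference (blue), 110 red genes lie in the upper left quadrant (higher in MOLM-13, lower in HEL) and 82 green genes in the lower right, FBLN2 and KCNH2 stand at 6.06 and 4.36 in MOLM-13 and near 0 in HEL, and DDX6 lies close to the dotted line.

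Opposite movers were the 192 well expressed genes called in both lines with opposite signs and for the difference. Genes higher in MOLM-13 and lower in HEL numbered 110 (1.32% of the 8358), and genes lower in MOLM-13 and higher in HEL numbered 82 (0.981%). The changes were modest in size. The median gene of the first set changed by 0.37 in MOLM-13 and -0.33 in HEL on the log2 scale, and that of the second by -0.34 and 0.32. In 108 and 82 of them the DDX6 shRNA and control libraries did not overlap in either line, against 52.4% of all well expressed genes; the calls that chose the sets rest on the same values. Changes of at least 0.5 in both lines were found in 7 and 4 of them. Absence of overlap was also a condition for naming opposite movers by the size of their changes. PIM1, MARCKSL1, PFKFB4, TNF, CDC6 and EPOR were among the genes named in that way. Their separation of libraries, given below, follows from the choice and is no separate support. At the 10 CPM limit, TRPM4, SIDT2 and SLC66A1 lay just inside with 10.5 to 11 CPM in their lower line, and DEPTOR, VIM-AS1 and VWCE just outside with 8.95 to 9.38 CPM.

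PIM1, a serine/threonine kinase whose gene is a STAT5 target, showed the opposite movement at a high level. PIM1 (chr6:37170203-37175426, plus strand) had 444 and 437 CPM in MOLM-13 DDX6 shRNA libraries, against 290.0 and 276 CPM in MOLM-13 controls. It had 493 and 496 CPM in HEL DDX6 shRNA libraries, against 792 and 790.0 CPM in HEL controls. Both DDX6 shRNA libraries stood above both controls in MOLM-13 and below both in HEL, which the choice of the gene required. The log2 change was 0.64 ± 0.06 in MOLM-13 and -0.68 ± 0.06 in HEL (SE), a difference of 1.32 ± 0.08 (edgeR adjusted p = 2.96e-16). Among MAPK and JAK-STAT feedback genes, SPRY2, an inhibitor of receptor tyrosine kinase signalling, also moved in opposite directions, by 0.62 in MOLM-13 and -0.39 in HEL (difference 1.01 ± 0.15, edgeR adjusted p = 4.95e-06). That list did not lean to 1 side: of 26 members tested 7 were positive and 4 negative, with a median difference of -0.09.

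TIAM1, an exchange factor that activates the GTPase RAC1, rose in MOLM-13 from a low base and fell in HEL. TIAM1 (chr21:31118416-31559977, minus strand) had 24.6 and 23 CPM in MOLM-13 DDX6 shRNA libraries, against 11.2 and 11.3 CPM in MOLM-13 controls. HEL held far more of it, at 99.9 and 98.9 CPM under DDX6 shRNA, against 150.0 and 152 CPM in controls. The 4 HEL libraries all lay above the 4 MOLM-13 libraries, and the lines were closer under DDX6 shRNA. The difference of 1.68 ± 0.15 (edgeR adjusted p = 1.32e-11) joined a log2 change of 1.08 ± 0.14 in MOLM-13 to one of -0.60 ± 0.07 in HEL. MARCKSL1, an actin-binding substrate of protein kinase C, had 72.6 and 68.2 CPM in MOLM-13 DDX6 shRNA libraries, against 42 and 48.4 CPM in MOLM-13 controls. In HEL, MARCKSL1 had 25 and 25.2 CPM under DDX6 shRNA, against 40.2 and 39.8 CPM in controls. Its shRNA and control libraries did not overlap in either line, which was a condition for naming it. Its difference was 1.31 ± 0.13 (edgeR adjusted p = 4.66e-10).

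Metabolic enzymes were found on the same side. PFKFB4 makes fructose 2,6-bisphosphate, the activator of glycolytic phosphofructokinase. It had 32.2 and 30.6 CPM in MOLM-13 DDX6 shRNA libraries, against 21.1 and 23.9 CPM in MOLM-13 controls. Its HEL libraries held 52.2 and 51.8 CPM under DDX6 shRNA, against 90.8 and 86.2 CPM in controls. The groups did not overlap in either line, again a condition for naming the gene. The fall in HEL (-0.77 ± 0.08) was larger than the rise in MOLM-13 (0.48 ± 0.12). The difference was 1.24 ± 0.14 (edgeR adjusted p = 5.75e-09). ACACB, the acetyl-CoA carboxylase of the mitochondrial surface that restrains fatty acid oxidation, had 24.6 and 24.7 CPM in MOLM-13 DDX6 shRNA libraries, against 15.2 and 17.8 CPM in MOLM-13 controls. In HEL it had 19.9 and 19 CPM with the shRNA, against 31.5 and 33.7 CPM without. MOLM-13 thus ended above HEL after knockdown and started below it in controls (difference 1.32 ± 0.17, edgeR adjusted p = 1.09e-07). CLYBL, a mitochondrial lyase, had log2 changes of 0.76 in MOLM-13 and -0.51 in HEL. It averaged 8.9 CPM in MOLM-13 controls and passed the 10 CPM limit in MOLM-13 through the DDX6 shRNA group. LHPP, a phosphatase, had log2 changes of 0.62 in MOLM-13 and -0.46 in HEL.

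MX2, an interferon-induced GTPase that restricts viruses, was the single interferon-stimulated gene of the list used here that moved in opposite directions. MX2 (chr21:41361943-41409390, plus strand) had 52.7 and 58.1 CPM in MOLM-13 DDX6 shRNA libraries, against 31 and 29.1 CPM in MOLM-13 controls. Its level was 56.9 and 55.5 CPM in HEL DDX6 shRNA libraries, against 76.9 and 78.2 CPM in HEL controls. MOLM-13 controls were the lowest group and HEL controls the highest, and the 2 knockdown groups lay between them at near-equal levels. The difference was 1.35 ± 0.13 (edgeR adjusted p = 4.75e-11). CDCA7, a MYC-responsive nuclear protein, had 178 and 192 CPM in MOLM-13 DDX6 shRNA libraries, against 141 and 120.0 CPM in MOLM-13 controls. It stood at 64.2 and 63.1 CPM in HEL DDX6 shRNA libraries, against 97.7 and 97.1 CPM in HEL controls. Here the lines moved apart, since MOLM-13 started higher and rose while HEL started lower and fell (difference 1.12 ± 0.11, edgeR adjusted p = 1.18e-10).

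The remaining named genes of this side were CROCC, the ciliary rootlet protein, with log2 changes of 0.58 in MOLM-13 and -0.52 in HEL, the zinc-finger gene ZNF436 with 0.84 in MOLM-13 and -0.46 in HEL, and ANKRD9 with 0.45 in MOLM-13 and -0.51 in HEL. ZNF436 averaged 7.9 CPM in MOLM-13 controls and passed the 10 CPM limit in MOLM-13 through the DDX6 shRNA group. Exons of ZNF436 and ANKRD9 overlap a gene on the other strand (ZNF436-AS1 and TECPR2), and the strand setting of the counts is not given in the sources used here, so their reads cannot be told apart from those of the partner. RAB6B, singled out after its values were seen, had the largest difference of the set, 2.52, with log2 changes of 2.22 in MOLM-13 and -0.29 in HEL. It overlaps SRPRB on the other strand. Its MOLM-13 libraries averaged 22.8 CPM, which at that change puts the controls under 10 CPM. RAB6B thus passed the limit in MOLM-13 through the DDX6 shRNA group, and its rank rests on the change itself.

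**Figure D2:**
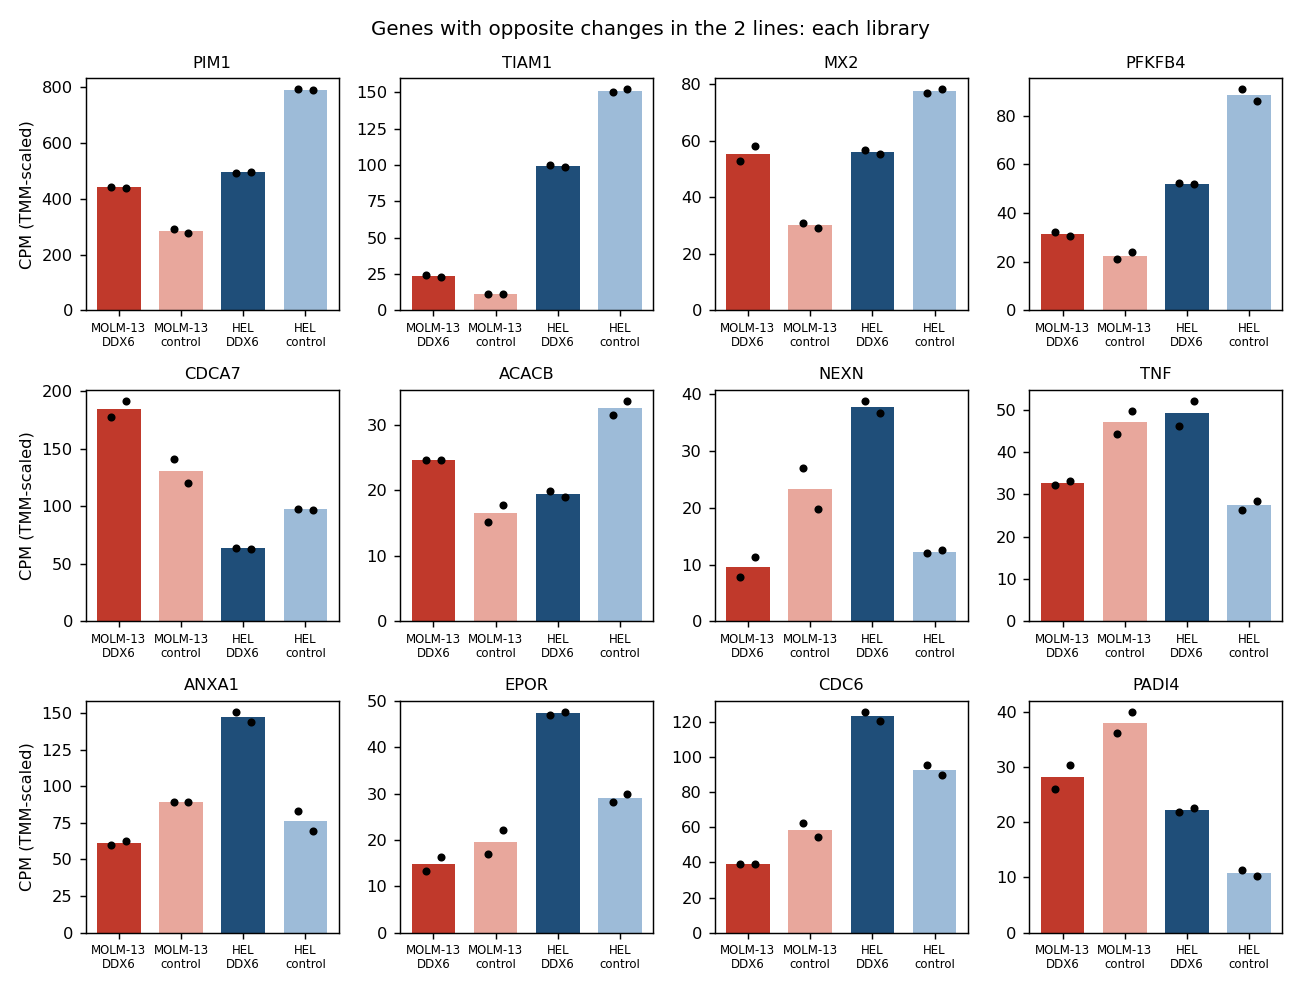
TMM-scaled CPM of 12 opposite movers in each library (points) with group means (bars), MOLM-13 DDX6 shRNA, MOLM-13 control, HEL DDX6 shRNA and HEL control from left to right. In PIM1, TIAM1, MX2, PFKFB4, CDCA7 and ACACB the DDX6 shRNA bar is above its control in MOLM-13 and below it in HEL, and in NEXN, TNF, ANXA1, EPOR, CDC6 and PADI4 the reverse holds.

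On the other side, NEXN, which encodes the actin-filament binding protein nexilin, had the widest gap of all opposite movers. NEXN (chr1:77888513-77943895, plus strand) had 7.76 and 11.4 CPM in MOLM-13 DDX6 shRNA libraries, against 27 and 19.8 CPM in MOLM-13 controls. It had 38.9 and 36.7 CPM in HEL DDX6 shRNA libraries, against 12 and 12.6 CPM in HEL controls. NEXN averaged 9.6 CPM in MOLM-13 DDX6 shRNA libraries and passed the 10 CPM limit in MOLM-13 through the controls (23.4 CPM). The order of the lines was exchanged: in controls both MOLM-13 libraries lay above both HEL libraries, and under DDX6 shRNA both lay below. The log2 change was -1.29 ± 0.16 in MOLM-13 and 1.62 ± 0.12 in HEL, a difference of -2.91 ± 0.21 (edgeR adjusted p = 9.29e-15). CXCR2P1 had log2 changes of -1.06 in MOLM-13 and 1.07 in HEL. It is a transcribed pseudogene of the chemokine receptor gene CXCR2, so its reads may be shared with that gene and its values are uncertain.

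TNF, ANXA1 and PADI4 moved the same way as NEXN, while NFKB1, of the same inflammatory list as TNF, was an opposite mover in the reverse direction. TNF, the cytokine tumour necrosis factor, lies at chr6:31575567-31578336, plus strand. It had 32.2 and 33.2 CPM in MOLM-13 DDX6 shRNA libraries, against 44.3 and 49.7 CPM in MOLM-13 controls. In HEL there were 46.2 and 52.1 CPM with DDX6 shRNA, against 26.3 and 28.5 CPM in controls. The fall in MOLM-13 (-0.52 ± 0.11) and the rise in HEL (0.84 ± 0.10) were each free of overlap between libraries, as its choice required. The difference was -1.36 ± 0.14 (edgeR adjusted p = 7.43e-10). ANXA1, a calcium-dependent phospholipid-binding protein with anti-inflammatory action, had 60.0 and 62.9 CPM in MOLM-13 DDX6 shRNA libraries, against 89.5 and 89.5 CPM in MOLM-13 controls. It had 151 and 144 CPM in HEL DDX6 shRNA libraries, against 83.2 and 69.3 CPM in HEL controls. HEL DDX6 shRNA libraries were the highest of the 8 and MOLM-13 DDX6 shRNA libraries the lowest (difference -1.49 ± 0.12, edgeR adjusted p = 2.19e-13). PADI4, which converts arginine to citrulline in histones, had 26 and 30.4 CPM in MOLM-13 DDX6 shRNA libraries, against 36.1 and 40.0 CPM in MOLM-13 controls. Its HEL values were 21.9 and 22.5 CPM under DDX6 shRNA, against 11.3 and 10.2 CPM in controls, and its difference was -1.47 ± 0.17 (edgeR adjusted p = 1.01e-08).

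The TNF and ANXA1 start regions are printed because both hold a TATA box, a letter pattern found in 8 of 71 (11.3%) opposite movers of this side with a promoter entry, in 4 of 91 (4.4%) of the other side and in 4.72% of all well expressed genes. They are RefSeq sequences of GRCh38.p14, the TNF stretch from chr6:31575465-31575614, plus strand and the ANXA1 region from chr9:73151615-73151914, plus strand. Capitals mark TATAAA in both and, in ANXA1, a match to GAAANNGAA on the reverse strand.
TNF: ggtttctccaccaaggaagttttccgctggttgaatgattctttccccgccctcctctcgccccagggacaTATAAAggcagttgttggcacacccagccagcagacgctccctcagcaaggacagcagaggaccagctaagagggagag
ANXA1: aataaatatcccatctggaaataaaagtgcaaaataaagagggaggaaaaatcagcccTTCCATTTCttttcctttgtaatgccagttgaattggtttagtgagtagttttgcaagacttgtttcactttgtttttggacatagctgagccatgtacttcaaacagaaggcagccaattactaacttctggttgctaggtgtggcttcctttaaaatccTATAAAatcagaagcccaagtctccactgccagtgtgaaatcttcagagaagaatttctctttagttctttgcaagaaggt
Both genes fell in MOLM-13 and rose in HEL.

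EPOR, the erythropoietin receptor through which JAK2 signals in red cell precursors, rose in the erythroid line and fell in the monocytic one. EPOR had 13.2 and 16.4 CPM in MOLM-13 DDX6 shRNA libraries, against 16.9 and 22.1 CPM in MOLM-13 controls. It had 47.1 and 47.7 CPM in HEL DDX6 shRNA libraries, against 28.1 and 29.9 CPM in HEL controls. HEL libraries did not overlap between groups and the 2 MOLM-13 groups lay close together at 16.4 and 16.9 CPM. The difference was -1.11 ± 0.18 (edgeR adjusted p = 9.68e-06), while the MOLM-13 fall alone (-0.40 ± 0.15) was close to the threshold (edgeR adjusted p = 0.0318). Exons of EPOR overlap RGL3 on the same strand. The opposite call of EPOR was lost with DESeq2, with no filter on low counts, and when MOLM-13 DDX6 shRNA replicate 1 or MOLM-13 control replicate 2 was left out.

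CDC6, which loads the replicative helicase at origins, had 39.1 and 39.2 CPM in MOLM-13 DDX6 shRNA libraries, against 62.5 and 54.7 CPM in MOLM-13 controls. It had 126 and 121 CPM in HEL DDX6 shRNA libraries, against 95.7 and 89.7 CPM in HEL controls. The fall in MOLM-13 and the rise in HEL were free of overlap, as the choice of the gene required. The difference was -0.99 ± 0.12 (edgeR adjusted p = 4.11e-08). FAM83D, a spindle protein, had log2 changes of -0.54 in MOLM-13 and 0.46 in HEL. DAPP1, an adaptor that binds phosphoinositides, had log2 changes of -0.50 in MOLM-13 and 0.71 in HEL. MFSD2A, a transporter of lysophospholipids, had log2 changes of -0.48 in MOLM-13 and 0.86 in HEL, and ACRBP, a proacrosin-binding protein, of -0.50 in MOLM-13 and 0.42 in HEL. XACT, a long non-coding RNA known for coating the active X chromosome in human pluripotent cells, had log2 changes of -0.46 in MOLM-13 and 0.47 in HEL. The opposite call was lost for XACT without HEL DDX6 shRNA replicate 2, HEL control replicate 1, MOLM-13 DDX6 shRNA replicate 2 or MOLM-13 control replicate 2, for ACRBP without HEL DDX6 shRNA replicate 1 or MOLM-13 control replicate 2, and for FAM83D when MOLM-13 DDX6 shRNA replicate 2 was left out. PADI4 lost it without MOLM-13 DDX6 shRNA replicate 1, LHPP without HEL control replicate 1, and ZNF436 with DESeq2 and without HEL DDX6 shRNA replicate 2 or MOLM-13 DDX6 shRNA replicate 2.

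The 2 sets of opposite movers had different median transcript lengths. The median length of the longest annotated transcript was 4652 bases in the genes higher in MOLM-13 and lower in HEL, 2515 bases in those lower in MOLM-13 and higher in HEL, and 3723 bases in all well expressed genes. The 8347 well expressed genes with an annotation were cut by length into 4 bins of near-equal size. The median difference was -0.11 among the shortest genes, -0.052 in the second bin, 0.002 in the third and 0.036 in the longest. The lean of the calls turned with length. Among the shortest genes 163 differences were called positive and 346 negative, and in the second bin 183 and 269. In the third bin they numbered 246 and 182, and in the longest 274 and 145. Median GC content was 49% and 48.6% in the 2 sets, against 47.4% in all well expressed genes. The contrast of long with short genes also moved between libraries of a single group, being 0.089 and -0.111 in the 2 MOLM-13 controls on the log2 scale, -0.028 and 0.047 in MOLM-13 DDX6 shRNA, -0.07 and -0.056 in HEL DDX6 shRNA and 0.046 and 0.082 in HEL controls. The part of length in the calls was tested in 1 way only: with the length trend removed, a choice made after seeing the data, 119 and 84 opposite movers were found, of which 97 and 72 were shared with the sets above.

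Promoter entries of RefSeq, from 250 bases before to 50 after the start, were matched for 91 of the 110 and 71 of the 82 genes. The ETS core CCGGAAGT, searched on both strands, was in 2 of 91 (2.2%) promoters of genes higher in MOLM-13 and lower in HEL, in 13 of 71 (18.3%) of the other set and in 11.1% of all well expressed genes. The ATF4 core TGATGNAA was in 4 (4.4%) and 0 of them, against 1.47% of all well expressed genes. The E-box CACGTG was in 7.69% and 5.63%, against 11.1%, the GATA site AGATAA in 5.49% and 2.82%, against 4.29%, the AP-1 site TGANTCA in 3.3% and 1.41%, against 3.83%, and the sterol element core TCACNCCAC in 1 and 0 promoters. Exons overlapped another annotated gene in 58 and 38 of the opposite movers, close to the 49.2% of all well expressed genes. The mean level was higher in MOLM-13 than in HEL in 55 of the 110 (50%) and 33 of the 82 (40.2%), against 47.3% of all well expressed genes, and the part of the level in the direction was not tested.

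Among well expressed genes called in both lines with the same sign, the widest gaps were rises in MOLM-13 from controls of 1.65 to 2.49 CPM. SPARC, CTSW, NRXN2 and OAS3 passed the 10 CPM limit in MOLM-13 only through the DDX6 shRNA group, so that their place in this ranking rests on the change itself. SPARC, a secreted matrix glycoprotein, had 40.8 and 40.8 CPM in MOLM-13 DDX6 shRNA libraries, against 2.19 and 1.76 CPM in MOLM-13 controls. It had 188 and 184 CPM in HEL DDX6 shRNA libraries, against 70.4 and 68.9 CPM in HEL controls. It rose in both lines without overlap, by 4.36 ± 0.18 and 1.42 ± 0.07 on the log2 scale (difference 2.94 ± 0.22, edgeR adjusted p = 3.07e-14). OAS3, which makes the 2-5A signal that activates RNase L, had 19.5 and 21.5 CPM in MOLM-13 DDX6 shRNA libraries, against 2.58 and 2.39 CPM in MOLM-13 controls. In HEL it had 57.3 and 59.3 CPM under DDX6 shRNA, against 43.7 and 48.5 CPM in controls. Both groups were separate in each line, but MOLM-13 controls were low and the difference was 2.70 ± 0.23 (edgeR adjusted p = 2.19e-12). CTSW, a cysteine protease gene of lymphoid cells whose exons overlap FIBP on the other strand, differed by 3.13 ± 0.21. NRXN2, a neurexin, differed by 2.90 ± 0.25.

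Among rises larger in HEL, the widest differences were -1.29 to -1.40. Mean HEL control levels of VCAN, SCAMP5, CCL23 and AKR1C1 were 2.59 to 7.32 CPM, so these genes passed the limit in HEL through the DDX6 shRNA group. VCAN, the proteoglycan versican, had 43.5 and 51.5 CPM in MOLM-13 DDX6 shRNA libraries, against 14.7 and 10.6 CPM in MOLM-13 controls. It had 25.2 and 23.6 CPM in HEL DDX6 shRNA libraries, against 3.17 and 2.01 CPM in HEL controls. It rose in both lines, by 1.91 ± 0.14 and 3.22 ± 0.18, with a difference of -1.31 ± 0.25 (edgeR adjusted p = 0.00017). The secretory carrier protein SCAMP5, which overlaps RPP25 on the other strand, rose by 0.89 in MOLM-13 and 2.29 in HEL. CCL23, a chemokine, rose by 0.63 in MOLM-13 and 1.92 in HEL. AKR1C1, a steroid reductase with close paralogues that may share its reads, rose by 0.74 in MOLM-13 and 2.07 in HEL.

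Among genes called in MOLM-13 alone, FBLN2 and KCNH2 had the widest positive differences, but both passed the 10 CPM limit in MOLM-13 only through the DDX6 shRNA group. FBLN2, a basement membrane protein, had 38.9 and 39.5 CPM in MOLM-13 DDX6 shRNA libraries, against 0.773 and 0.378 CPM in MOLM-13 controls. It had 179 and 169 CPM in HEL DDX6 shRNA libraries, against 171 and 174 CPM in HEL controls. MOLM-13 controls held 6 and 3 counts, and the HEL groups overlapped (difference 6.05 ± 0.25, edgeR adjusted p = 1.39e-22). KCNH2, the hERG potassium channel, had 52.6 and 57.4 CPM in MOLM-13 DDX6 shRNA libraries, against 3.48 and 1.89 CPM in MOLM-13 controls. In HEL it had 165 and 162 CPM under DDX6 shRNA, against 154 and 153 CPM in controls. Its difference was 4.27 ± 0.19 (edgeR adjusted p = 4.81e-22). ANPEP, the myeloid surface peptidase CD13, rose by 2.48 ± 0.09 in MOLM-13, where it had 224 and 255 CPM under DDX6 shRNA, against 39.7 and 45.9 CPM in controls. HEL already held it at 198 and 222 CPM under DDX6 shRNA, against 176 and 206 CPM in controls, so MOLM-13 DDX6 shRNA libraries lay at the HEL level. The same held for EMID1, with a difference of 2.14 ± 0.16.

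Among genes called in HEL alone, the widest gap was in CDKN1A, the cyclin-dependent kinase inhibitor p21 and a p53 target. CDKN1A, SLA and CACNA2D3 had mean HEL control levels of 5 to 7.4 CPM and passed the limit in HEL through the DDX6 shRNA group. CDKN1A (chr6:36676460-36687339, plus strand) had 361 and 353 CPM in MOLM-13 DDX6 shRNA libraries, against 310.0 and 348 CPM in MOLM-13 controls. It had 38.8 and 39.4 CPM in HEL DDX6 shRNA libraries, against 5.15 and 4.85 CPM in HEL controls. The HEL knockdown libraries lay far above their controls and far below every MOLM-13 library. The difference was -2.85 ± 0.15 (edgeR adjusted p = 1.47e-19), with 0.12 ± 0.07 in MOLM-13 and 2.96 ± 0.13 in HEL. SLA, a Src-like adaptor that restrains receptor signalling, had 163 and 172 CPM in MOLM-13 DDX6 shRNA libraries, against 166 and 164 CPM in MOLM-13 controls. In HEL it had 20.7 and 23.3 CPM under DDX6 shRNA, against 7.53 and 7.28 CPM in controls, for a difference of -1.55 ± 0.15. CACNA2D3, a calcium channel subunit, and RDH10, a retinol dehydrogenase, differed by -1.24 and -1.10.

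Gene lists, and the members named because a count was 5 or fewer, were chosen with results of these data in view. The lists were read by how many members were called for the difference, set against 7.53% positive and 7.59% negative over all genes tested. Among well expressed genes the shares were 10.4% and 11.3%, the closer background for lists whose members were mostly well expressed. ATF4 and integrated stress response targets leaned to the positive side. ATF4 is the transcription factor that is translated when eIF2 is phosphorylated, and it drives amino acid synthesis, transport and tRNA charging. Of 35 members tested, 20 had a positive difference and 0 a negative one, with a median of 0.53. DESeq2 also called 0 on the negative side, and edgeR's unadjusted p was under 0.05 for 3. Within the lines, 19 members fell and 2 rose in MOLM-13, and 27 fell and 0 rose in HEL. The median change was -0.35 in MOLM-13 and -0.63 in HEL. DDIT4, an inhibitor of mTORC1, had 43.3 and 43.5 CPM in MOLM-13 DDX6 shRNA libraries, against 51.6 and 62.3 CPM in MOLM-13 controls. It had 22.8 and 20.6 CPM in HEL DDX6 shRNA libraries, against 125 and 120.0 CPM in HEL controls. Groups were separate in both lines, with HEL DDX6 shRNA libraries the lowest group and HEL controls the highest (difference 2.10 ± 0.14, edgeR adjusted p = 5.24e-16). PHGDH, the first enzyme of serine synthesis, had log2 changes of -0.36 in MOLM-13 and -1.52 in HEL. PCK2, the mitochondrial phosphoenolpyruvate carboxykinase, had log2 changes of 0.07 in MOLM-13 (not called) and -1.43 in HEL. The positive count ranged from 15 to 22 over the 17 alternatives.

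Aminoacyl-tRNA synthetases charge tRNAs and are in part ATF4 targets. Of 18 tested, 10 had a positive difference and 1 a negative one (RARS1, -0.30), with a median of 0.31, and 4 were opposite movers: AARS1, IARS1, WARS1 and YARS1. Within the lines, 7 rose and 1 fell in MOLM-13, and 2 rose and 10 fell in HEL. The RARS1 call was lost with DESeq2, with RLE or upper-quartile scaling, with no filter on low counts and on leaving out any library but MOLM-13 control replicate 2. AARS1, the alanyl-tRNA synthetase, had 442 and 459 CPM in MOLM-13 DDX6 shRNA libraries, against 353 and 367 CPM in MOLM-13 controls. It had 346 and 320.0 CPM in HEL DDX6 shRNA libraries, against 450.0 and 451 CPM in HEL controls. Both DDX6 shRNA libraries were above both controls in MOLM-13 and below both in HEL (difference 0.76 ± 0.09, edgeR adjusted p = 8.48e-09). CARS1, the cysteinyl-tRNA synthetase, fell in HEL (-0.81 ± 0.08) and had a log2 change of 0.16 ± 0.07 in MOLM-13 that was not called (difference 0.97 ± 0.11). GARS1, the glycyl-tRNA synthetase, which overlaps GARS1-DT on the other strand, had log2 changes of -0.04 in MOLM-13 (not called) and -0.65 in HEL.

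The AARS1 and CARS1 start regions are shown because both hold the ATF4 core, which was in 6 of the 14 (42.9%) synthetase genes with a promoter entry, in 5 of the 29 (17.2%) members of the separate ATF4 list and in 1.87% of all genes tested. The RefSeq sequences (GRCh38.p14) lie at chr16:70289457-70289756, minus strand and chr11:3057374-3057523, minus strand, and capitals mark the match to TGATGNAA, here on the reverse strand.
AARS1: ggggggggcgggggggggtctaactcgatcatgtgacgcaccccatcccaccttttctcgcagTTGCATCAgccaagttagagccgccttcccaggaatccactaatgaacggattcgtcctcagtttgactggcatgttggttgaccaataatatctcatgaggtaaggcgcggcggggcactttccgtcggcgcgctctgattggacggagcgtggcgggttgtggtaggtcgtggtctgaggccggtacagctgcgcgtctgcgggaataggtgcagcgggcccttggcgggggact
CARS1: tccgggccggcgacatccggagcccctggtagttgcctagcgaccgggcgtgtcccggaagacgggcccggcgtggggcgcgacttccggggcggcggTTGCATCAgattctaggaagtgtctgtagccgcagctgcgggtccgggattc
The match is a description of the letters and says nothing of whether ATF4 was bound.

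**Figure D3:**
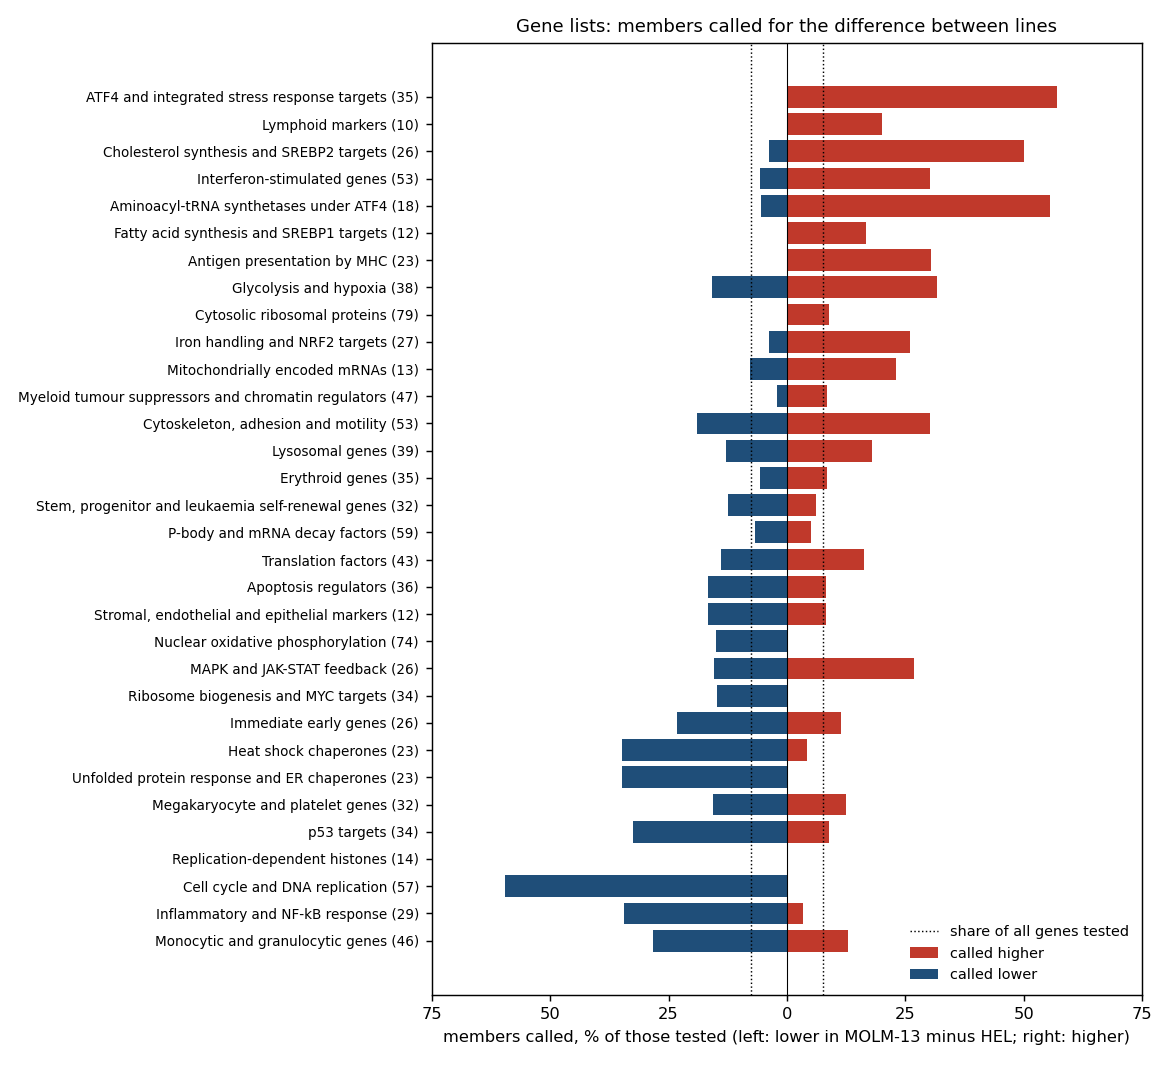
Share of tested members of 32 gene lists called for the difference between lines, positive to the right (red) and negative to the left (blue), ordered by median difference, with dotted lines at the shares over all genes tested (7.53% and 7.59%). Numbers in brackets are members tested. ATF4 targets, tRNA synthetases and cholesterol synthesis extend to the right, and cell cycle genes furthest to the left.

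Chaperones of the endoplasmic reticulum leaned to the negative side. Of 23 members of the unfolded protein response list, 0 had a positive difference (0 with DESeq2, 2 at an edgeR unadjusted p under 0.05) and 8 a negative one (median -0.24), while 12 members rose and 3 fell in MOLM-13, and 17 rose and 1 fell in HEL. HSPA5, the lumenal chaperone BiP, had 825 and 852 CPM in MOLM-13 DDX6 shRNA libraries, against 704 and 674 CPM in MOLM-13 controls. It had 1211 and 1154 CPM in HEL DDX6 shRNA libraries, against 505 and 499 CPM in HEL controls. All groups were separate, with HEL controls lowest and HEL DDX6 shRNA libraries highest (difference -0.95 ± 0.08, edgeR adjusted p = 1.97e-12). MANF, a secreted stress protein, and SDF2L1, a BiP cofactor, had log2 changes of 0.03 in MOLM-13 (not called) and 1.06 in HEL and of 0.34 in MOLM-13 and 1.41 in HEL. Among 23 heat shock chaperones 8 had a negative difference and 1 a positive one. FKBP4, an HSP90 cochaperone, had log2 changes of -0.24 in MOLM-13 and 0.44 in HEL, STIP1, the HSP70-HSP90 adaptor, of 0.01 in MOLM-13 (not called) and 0.43 in HEL, and SERPINH1, the collagen chaperone on the positive side, of 0.73 in MOLM-13 and 0.10 in HEL (not called). Without MOLM-13 DDX6 shRNA replicate 1 the negative count of heat shock genes was 5.

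Cholesterol synthesis genes, the targets of SREBP2, had a positive difference in 13 of 26 members and a negative one in 1 (NSDHL, -0.40), with a median of 0.38. Within the lines, 9 rose and 3 fell in MOLM-13, and 4 rose and 14 fell in HEL. The NSDHL call was lost with DESeq2, with RLE or upper-quartile scaling, with no filter on low counts and on leaving out any library but MOLM-13 control replicate 1. HMGCS1, the synthase that feeds the mevalonate pathway, had 82.1 and 83.1 CPM in MOLM-13 DDX6 shRNA libraries, against 76.2 and 60.6 CPM in MOLM-13 controls. It had 168 and 165 CPM in HEL DDX6 shRNA libraries, against 289 and 286 CPM in HEL controls. MOLM-13 rose by 0.27 ± 0.09 and HEL fell by 0.79 on the log2 scale, without overlap in either (difference 1.06 ± 0.11, edgeR adjusted p = 1.18e-09). DHCR7, which catalyses the last step of cholesterol synthesis, was also an opposite mover. MSMO1, a sterol demethylase subunit, rose in MOLM-13 (0.79 ± 0.10), and its HEL change of -0.16 ± 0.08 was not called. Of 12 fatty acid synthesis genes 2 were called, SCD (0.27) and ACACA (0.30), and neither call survived every left-out library: 0 were called without HEL DDX6 shRNA replicate 2, HEL control replicate 1 or HEL control replicate 2, and 6 without MOLM-13 control replicate 1.

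Interferon-stimulated genes leaned to the positive side. Of 53 tested, 35 rose and 0 fell in MOLM-13, 25 rose and 2 fell in HEL, and 16 had a positive difference against 3 with a negative one (PSMB8, TRIM21 and TRIM22, at -0.51, -0.59 and -0.53). The median difference was 0.32. Of the 53, 27 were well expressed in both lines, with 8 positive and 3 negative differences among them. IFI6, an interferon-induced mitochondrial protein, had 95.2 and 95.3 CPM in MOLM-13 DDX6 shRNA libraries, against 14.4 and 19.5 CPM in MOLM-13 controls. In HEL it had 39.5 and 31.6 CPM under DDX6 shRNA, against 19.3 and 15.2 CPM in controls. The control groups lay at similar levels in the 2 lines and the MOLM-13 knockdown libraries far above all others (difference 1.45 ± 0.17, edgeR adjusted p = 3.24e-08). OAS3 and MX2, described above, were the other named members.

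The OAS3 and IFI6 start regions are shown for their interferon-stimulated response elements, a pattern searched as GAAANNGAA on both strands and found in 26 of 41 (63.4%) list members with a promoter entry, against 6.7% of all genes tested. They are RefSeq sequences (GRCh38.p14) from chr12:112938314-112938523, plus strand and chr1:27672143-27672372, minus strand, with the matches in capitals, 2 in OAS3 and 3 in IFI6.
OAS3: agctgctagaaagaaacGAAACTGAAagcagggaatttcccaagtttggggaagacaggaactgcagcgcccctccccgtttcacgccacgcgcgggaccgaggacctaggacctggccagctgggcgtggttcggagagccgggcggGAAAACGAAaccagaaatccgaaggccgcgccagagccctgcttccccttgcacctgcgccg
IFI6: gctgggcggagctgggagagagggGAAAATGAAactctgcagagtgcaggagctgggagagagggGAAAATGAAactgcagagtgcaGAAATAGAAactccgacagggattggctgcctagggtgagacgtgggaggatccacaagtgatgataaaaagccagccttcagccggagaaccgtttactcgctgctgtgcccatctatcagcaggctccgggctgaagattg
The differences of these 2 genes were 2.70 and 1.45.

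Antigen presentation genes had 7 positive and 0 negative differences among 23 (0 negative with DESeq2, 2 at an edgeR unadjusted p under 0.05). HLA-DPA1 and HLA-DPB1, the chains of a class II molecule whose exons overlap each other on opposite strands, rose by 1.80 in MOLM-13 and 0.94 in HEL and by 1.88 in MOLM-13 and 0.65 in HEL. HLA-DPB1 averaged 9.25 CPM in HEL controls and passed the 10 CPM limit in HEL through the DDX6 shRNA group. In HLA-DPA1 the levels were 514 and 549 CPM in MOLM-13 DDX6 shRNA libraries, against 146 and 159 CPM in MOLM-13 controls, and 101 and 92.4 CPM in HEL DDX6 shRNA libraries, against 50.8 and 49.9 CPM in HEL controls. ERAP1, a peptide-trimming protease of the endoplasmic reticulum that overlaps CAST on the other strand, rose in MOLM-13 (0.66 ± 0.09) and was not called in HEL (-0.01 ± 0.10).

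**Figure D4:**
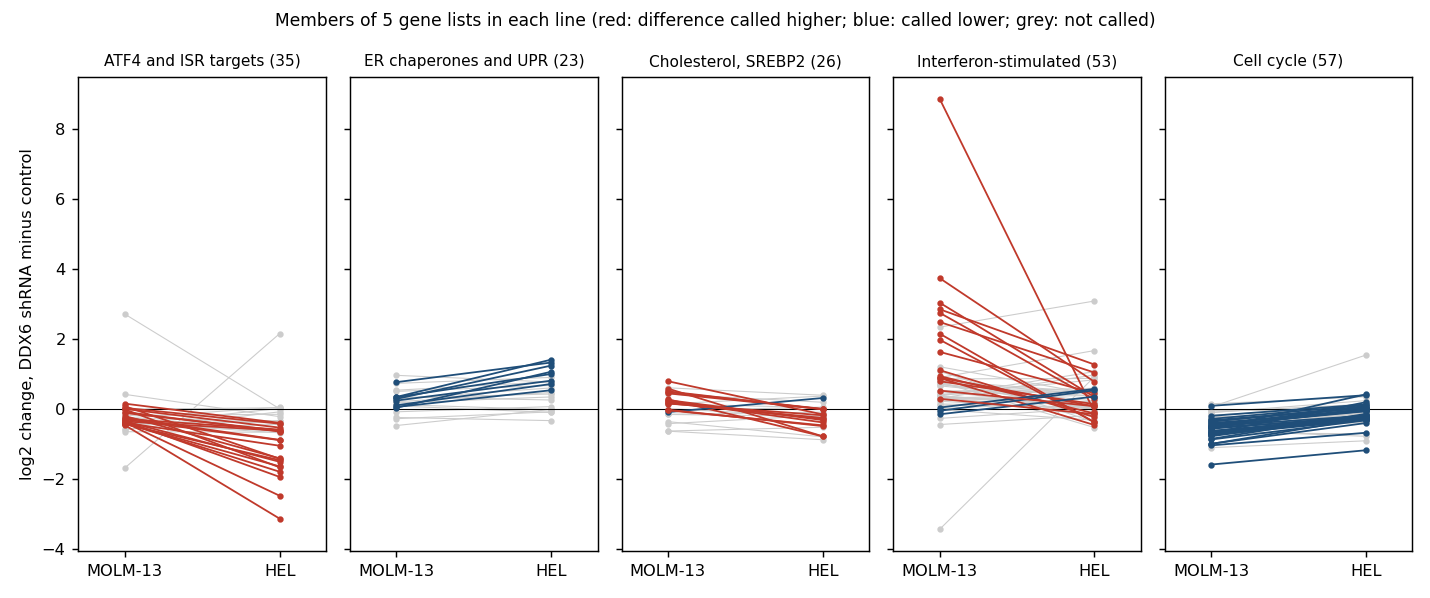
Log2 change under DDX6 shRNA of each tested member of 5 gene lists in MOLM-13 (left end of each line) and HEL (right end), red where the difference is called positive, blue where called negative and grey where not called. The 20 called ATF4 targets slope down to HEL, the 8 called ER chaperones slope up, 13 cholesterol genes and 16 interferon-stimulated genes stand higher in MOLM-13 (red), and 34 cell cycle genes lower (blue). The highest interferon-stimulated point is IFI27, whose fitted change rests on MOLM-13 controls without counts and is no measure of size.

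Inflammatory and NF-kB response genes leaned negative, with 10 of 29 members against 1 positive (median -0.44). Of the 29, 13 were well expressed in both lines, with 4 negative and 1 positive among them. NFKB1, the p105 precursor of NF-kB, was that positive member and an opposite mover, with log2 changes of 0.38 in MOLM-13 and -0.24 in HEL (difference 0.61 ± 0.12, edgeR adjusted p = 0.0002). NFKB2, its relative p100, fell by 0.63 in MOLM-13 and had -0.14 in HEL, and its difference of -0.48 ± 0.14 was lost in 6 of the 17 alternatives. The negative count was 5 with DESeq2 or without MOLM-13 DDX6 shRNA replicate 2, and 6 without MOLM-13 DDX6 shRNA replicate 1, MOLM-13 control replicate 2 or HEL control replicate 2. Immediate early genes had 3 positive (JUND, ATF3 and KLF10) and 6 negative differences among 26, against 1 and 4 with DESeq2. IER2 fell in MOLM-13 (-0.89 ± 0.10) and was not called in HEL (0.04 ± 0.08), BTG2, an antiproliferative partner of CCR4-NOT, rose more in HEL (1.28) than in MOLM-13 (0.30), and JUND had log2 changes of 0.16 in MOLM-13 (not called) and -0.39 in HEL. The 26 MAPK and JAK-STAT feedback genes had 7 positive differences, 3 of them in opposite movers (PIM1, SPRY2 and CISH). SPRED2, an inhibitor of RAS signalling, had log2 changes of -0.13 in MOLM-13 (not called) and -0.89 in HEL. The 4 negative members were DUSP5, PHLDA1, ID1 and DUSP6, at -1.30, -1.61, -1.80 and -0.43. Fitted changes were -0.84 in MOLM-13 and 0.47 in HEL for DUSP5, and -1.01 in MOLM-13 and 0.60 in HEL for PHLDA1. For ID1 they were -1.10 in MOLM-13 and 0.70 in HEL. The fitted signs of these genes were reverse to those of PIM1. Their differences had SEs of 0.25 (DUSP5), 0.34 (PHLDA1) and 0.47 (ID1). Of the 4 negative members 1 was well expressed in both lines, and none was an opposite mover.

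Cell cycle and DNA replication genes leaned negative. Of 57 members 34 had a negative difference and 0 a positive one (median -0.36), with 0 positive also in DESeq2 and at an edgeR unadjusted p under 0.05. In MOLM-13 48 fell and 0 rose, and in HEL 25 fell and 5 rose. CDC25A, the phosphatase that opens entry into S phase, fell in MOLM-13 (-0.69 ± 0.11) and rose in HEL (0.19 ± 0.07), an opposite mover like CDC6 (difference -0.88 ± 0.13, edgeR adjusted p = 1.3e-06). CDC45, a part of the replicative helicase, had log2 changes of -0.86 in MOLM-13 and -0.14 in HEL (not called). The negative count was 22 without HEL DDX6 shRNA replicate 1, 18 without HEL control replicate 2, 19 without MOLM-13 DDX6 shRNA replicate 1 and 20 without MOLM-13 DDX6 shRNA replicate 2. Among 34 p53 targets 11 were negative and 3 positive (BBC3, SESN2 and CCNG1). BBC3, the cell death inducer PUMA, fell in HEL (-1.59 ± 0.14) and was not called in MOLM-13 (-0.05 ± 0.13), against the direction of CDKN1A. BBC3 averaged 7.7 CPM in HEL DDX6 shRNA libraries and passed the 10 CPM limit in HEL through the controls (23.3 CPM). BAX, a pore-forming death effector, had log2 changes of -0.47 in MOLM-13 and 0.12 in HEL (not called). Apoptosis regulators had 3 positive and 6 negative of 36, with BNIP3, a mitochondrial receptor for autophagy, at -0.31 in MOLM-13 and -1.23 in HEL. The positive count was 5 without MOLM-13 control replicate 1.

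Growth and energy genes were described by 5 lists. Cytosolic ribosomal proteins had 7 positive and 0 negative differences of 79 (0 negative with DESeq2, 1 at an edgeR unadjusted p under 0.05), with a median of 0.1. All 79 were well expressed in both lines, and their positive share of 8.86% was below the 10.4% of well expressed genes. The named members were close to each other: RPS18, which overlaps VPS52 on the other strand, 0.30, RPL3 0.28 and RPL12 0.29. The positive count of ribosomal proteins ranged from 1 (HEL control replicate 1 left out) to 48 (MOLM-13 control replicate 2 left out). Translation factors were divided, 7 positive and 6 negative of 43, with counts of 2 to 12 and 2 to 7 over the alternatives, and with EIF4B at 0.38, EIF5A at -0.39 and EIF2S1 at -0.45, each overlapping a gene on the other strand. Ribosome biogenesis genes had 0 positive (0 with DESeq2 and at an edgeR unadjusted p under 0.05) and 5 negative of 34, namely NOP56, NOP58, BOP1, POLR1C and UTP4, with 2 to 10 negative over the alternatives. NOP58, a core protein of box C/D snoRNPs, and its partner NOP56 were opposite movers, at -0.26 in MOLM-13 and 0.28 in HEL and at -0.46 in MOLM-13 and 0.16 in HEL. Nuclear oxidative phosphorylation genes had 11 negative of 74, among them COX7B (-0.40), NDUFB10 (-0.44) and NDUFA9 (-0.57), but only 2 without HEL control replicate 2 or MOLM-13 DDX6 shRNA replicate 2, and 18 when MOLM-13 control replicate 1 was left out. Of 13 mitochondrially encoded mRNAs 4 were called: MT-ND4L (0.46, overlapping MT-ND4), MT-ND5 (0.33), MT-CO1 (0.23) and MT-CYB (-0.32). The positive count was 6 without MOLM-13 control replicate 2 or with the length trend removed, and the negative count 0 without HEL control replicate 1 or MOLM-13 DDX6 shRNA replicate 1 or with that trend removed.

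Glycolysis and hypoxia genes had 12 positive and 6 negative differences of 38, and 5 of the positive ones were opposite movers. PFKFB4 had the widest gap of the 5. The negative count ranged from 1 (MOLM-13 DDX6 shRNA replicate 1 left out) to 7 over the alternatives. TXNIP, which restrains glucose uptake and binds thioredoxin, rose by 0.17 in MOLM-13 and fell by 0.49 in HEL (difference 0.66 ± 0.09, edgeR adjusted p = 2.43e-07). Factors of P-bodies and mRNA decay, the partners of DDX6, were called at 5.08% positive and 6.78% negative. These shares were below the 10.4% and 11.3% of well expressed genes, and 56 of the 59 members tested were well expressed in both lines. The calls were 3 positive (MOV10, ZFP36L2 and PAN2) and 4 negative (BTG2, LSM3, CNOT9 and ZFP36). Over the alternatives these counts were 2 to 13 (13 without MOLM-13 control replicate 1) and 2 to 6. MOV10, an RNA helicase of the microRNA machinery, rose more in MOLM-13 (0.96 in MOLM-13 and 0.29 in HEL). LSM3, a subunit of the LSM ring that binds deadenylated mRNA and overlaps XPC on the other strand, was the opposite mover of the list (-0.36 in MOLM-13 and 0.24 in HEL).

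Few lineage genes were well expressed in both lines. Of 46 monocytic and granulocytic genes 6 were positive and 13 negative (median -0.63), and 14 were well expressed in both lines. Without HEL DDX6 shRNA replicate 2 the positive count was 3. TYROBP, the adaptor DAP12, rose by 0.60 in MOLM-13 and 1.30 in HEL, and LYZ, lysozyme, by 0.30 in MOLM-13 and 0.92 in HEL. ANPEP, above, went the other way. Of 32 megakaryocyte and platelet genes 4 were positive (SPARC, MYL9, F2RL3 and CD9) and 5 negative (CLEC1B, VWF, NFE2, ITGA2 and THBS1, 1 to 6 over the alternatives and 1 with DESeq2), and 7 of the 32 were well expressed in both lines. MYL9, a myosin light chain, rose by 3.31 in MOLM-13 and 1.36 in HEL and CD9, a tetraspanin, by 1.84 in MOLM-13 and 1.06 in HEL. MYL9 averaged 7.57 CPM in MOLM-13 controls and 9.75 CPM in HEL controls, and CD9 averaged 6.98 CPM in HEL controls. In these lines both genes passed the 10 CPM limit through the DDX6 shRNA group. Of 35 erythroid genes FECH, CPOX and GYPC were positive and EPOR and SPTB negative, with 5 positive without MOLM-13 control replicate 1. The shares of erythroid genes called were 8.57% positive and 5.71% negative, near the 7.53% and 7.59% of all genes tested. FECH and CPOX, enzymes of haem synthesis, rose in MOLM-13 (0.75 and 0.54) and were -0.16 and -0.08 in HEL, neither called there. Of 32 stem and self-renewal genes 2 were positive, ETV6 and FLT3, and 4 negative, GATA2, MEF2C, CD47 and CD44, and FLT3 rests on HEL libraries at or near 0. Over the alternatives these counts were 0 to 5 and 1 to 4. GATA2, a progenitor transcription factor, fell in MOLM-13 (14.7 and 16.2 CPM in DDX6 shRNA libraries, against 30.1 and 29.1 CPM in controls) and was not called in HEL (849 and 872 CPM, against 824 and 834 CPM). MEF2C, which overlaps MEF2C-AS1, differed by -0.43 and ETV6 by 0.33. Of the stem and self-renewal genes tested, 6.25% were positive and 12.5% negative, against 7.53% and 7.59% of all genes tested. Among 47 myeloid tumour suppressors and chromatin regulators 4 were positive and 1 negative, and 3 of these were opposite movers: CUX1, CDKN1B and EED, a Polycomb subunit (-0.36 in MOLM-13 and 0.32 in HEL). The shares called, 8.51% and 2.13%, were below the 10.4% and 11.3% of well expressed genes. Of the 47, 45 were well expressed in both lines. The positive count was 15 without MOLM-13 control replicate 1, and the negative count 1 to 5 over the alternatives. BCOR, a corepressor, differed by 0.39. CUX1, a homeobox tumour suppressor, had log2 changes of 0.47 in MOLM-13 and -0.36 in HEL, CDKN1B, the inhibitor p27, of 0.22 in MOLM-13 and -0.43 in HEL, and KDM5B, a histone demethylase, of 0.94 in MOLM-13 and 0.16 in HEL (not called).

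Of 39 lysosomal genes, 24 rose and 1 fell in MOLM-13, and 26 rose and 1 fell in HEL. The difference was positive in 7 and negative in 5 (CTSA, GABARAPL1, ATP6V0D1, MCOLN1 and GLA). The positive count was 4 with DESeq2 or without HEL DDX6 shRNA replicate 2 or HEL control replicate 2, and the negative count 3 to 6 over the alternatives. CTSA, the protective protein cathepsin A, which overlaps PLTP on the other strand, rose more in HEL (0.70 in MOLM-13 and 1.92 in HEL). CTSH, an aminopeptidase, rose more in MOLM-13 (1.83 in MOLM-13 and 1.03 in HEL), and ASAH1, acid ceramidase, rose there by 0.55 and was -0.03 in HEL. Iron and NRF2 genes had 7 positive and 1 negative (SLC40A1, ferroportin, -1.89) of 27. FTH1, the ferritin heavy chain, had log2 changes of 0.46 in MOLM-13 and -0.16 in HEL (not called), and SLC48A1, a haem transporter, of 0.99 in MOLM-13 and 0.22 in HEL. Both overlap genes on the other strand. Without MOLM-13 control replicate 1 the positive count was 11, and the SLC40A1 call was lost without MOLM-13 DDX6 shRNA replicate 1 or MOLM-13 control replicate 2. Cytoskeleton, adhesion and motility genes had 16 positive and 10 negative differences of 53. TPM4, a tropomyosin, rose more in MOLM-13 (1.45 in MOLM-13 and 0.48 in HEL) and overlaps an unnamed gene on the other strand. LGALS1, the lectin galectin-1, rose more in HEL: it had 1087 and 1063 CPM in MOLM-13 DDX6 shRNA libraries, against 654 and 752 CPM in MOLM-13 controls. It had 179 and 171 CPM in HEL DDX6 shRNA libraries, against 49 and 54.4 CPM in HEL controls, for a difference of -1.15 ± 0.10 (edgeR adjusted p = 2.77e-12).

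The summed levels of 2 lists of markers of other cell types were higher under DDX6 shRNA in both lines. In MOLM-13 a few genes carried the sums. The 20 lymphoid markers summed to 210.0 to 234 CPM in MOLM-13 DDX6 shRNA libraries, against 116 to 138 CPM in MOLM-13 controls, and to 101 to 104 CPM in HEL DDX6 shRNA libraries, against 45.8 to 48.2 CPM in HEL controls. CD3E had 0 to 2 counts in every library, while CD3D had 365 and 314 counts in MOLM-13 DDX6 shRNA libraries, against 52 and 46 counts in MOLM-13 controls, and at most 2 in HEL. NKG7 had 1129 and 1014 counts in MOLM-13 DDX6 shRNA libraries, against 761 and 947 counts in MOLM-13 controls, and 19 to 43 in HEL. The lymphoid rise in HEL was spread over several genes. CD79B had 270 and 228 counts in HEL DDX6 shRNA libraries, against 88 and 85 in HEL controls. PRF1 had 273 and 256, against 136 and 128. CD5, with 4 and 6 counts against 5 and 11, did not rise there. For the difference 2 of 10 lymphoid genes tested were positive, PRF1 (1.37) and CD79B (0.76), and CD79B lost its call in 8 of the 17 alternatives. The 18 stromal, endothelial and epithelial markers summed to 554 to 596 CPM, against 289 to 296 CPM in MOLM-13, and to 462 to 480.0 CPM, against 364 to 372 CPM in HEL, with DDX6 shRNA before control. KRT5 was at 0 in all 8 libraries. PECAM1, an adhesion molecule that leukocytes also carry, made up most of that sum, with 2051 to 4148 counts in a library, and differed by 0.72 ± 0.09. Not every marker followed the sums: KRT18 had 618 and 624 counts in HEL DDX6 shRNA libraries, against 615 and 518 counts in HEL controls, and COL3A1 had 12 and 13 counts in MOLM-13 DDX6 shRNA libraries, against 44 and 31 counts in MOLM-13 controls. COL1A1 and COL3A1, at low counts, were called on the negative side. Fewer cells of a type and less RNA per cell cannot be told apart in bulk RNA, and the part of other cell types in the differences was not tested.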

How the data were processed

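Per the labels' protocols, total RNA came from the miRNeasy Micro kit and went into NEBNext Ultra II libraries. The submitters' processing notes name STAR, SAMtools 1.12, DESeq2 and the build GRCh38. For the counter, the annotation and the strand setting, nothing is given in the sources used here. The authors deposited 1 table of raw counts per gene for each line, 4 libraries each. The tables were joined on their gene column (61544 entries, of which 56976 matched GENCODE 29 by name). Genes were filtered with filterByExpr (minimum count 10), scaled with TMM and fitted in 1 model of 4 groups with edgeR 4.0.16 (quasi-likelihood F test, R 4.3.3). The contrast subtracted the change in HEL from that in MOLM-13, with Benjamini-Hochberg adjustment over 16499 genes and a threshold of 0.05. The fit had 4 residual degrees of freedom, shared over genes by empirical Bayes. CPM are TMM-scaled and are not per length, so levels are compared within a gene. DESeq2 1.42.0, other scalings, filters, replicate blocks and left-out libraries were the alternatives. The fit was also run on simulated counts that gave every group the same spread. It therefore cannot speak to the wider spread of the MOLM-13 controls.

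The members, gene lists and alternatives were chosen with earlier results of these data known. Named genes were DDX6, the 12 opposite movers in each direction with the largest smaller-of-both log2 changes and no overlap of libraries, the 4 widest differences in each direction of genes called in both lines with 1 sign and of genes called in 1 line, and up to 3 well expressed members of each list with the smallest adjusted p. Other genes named were chosen after their values were seen. Between replicates the chi-square of counts per degree of freedom was 3.37 in MOLM-13 controls and 1.41 to 1.69 in the other groups. No pair of count columns was identical. These values do not show whether replicates were separate cultures or repeat sequencing of 1 library. Promoter sequences are from RefSeq. Some genes that the rule names are not reported here.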

Additional observations from a re-analysis of the deposited data

Results flagged for a closer look

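The results below were picked out because the test of the difference between the lines itself passed the threshold (edgeR's quasi-likelihood test, Benjamini-Hochberg adjusted p under 0.05). They are the 1242 genes with a positive and the 1253 with a negative difference, and within the opposite movers the 110 higher in MOLM-13 and lower in HEL and the 82 lower in MOLM-13 and higher in HEL. Groups of 2 libraries are too small for a test of single outlying libraries.

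Among named genes, these moved higher in MOLM-13 than in HEL, with the log2 difference (MOLM-13 minus HEL) in brackets. The widest log2 differences were those of FBLN2 (6.05), KCNH2 (4.27), CTSW (3.13), SPARC (2.94), NRXN2 (2.90), OAS3 (2.70) and ANPEP (2.35). Next came EMID1 (2.14), DDIT4 (2.10), MYL9 (1.95), TIAM1 (1.68), BBC3 (1.54), PCK2 (1.50) and IFI6 (1.45). Then followed MX2 (1.35), PIM1 (1.32), ACACB (1.32), MARCKSL1 (1.31), ZNF436 (1.30), CLYBL (1.28) and PFKFB4 (1.24). After them came HLA-DPB1 (1.23), PHGDH (1.16), CDCA7 (1.12), CROCC (1.09), LHPP (1.08), HMGCS1 (1.06) and SPRY2 (1.01). Smaller were CARS1 (0.97), TPM4 (0.97), ANKRD9 (0.96), MSMO1 (0.95), BNIP3 (0.92), FECH (0.91) and HLA-DPA1 (0.86). Still smaller were CUX1 (0.83), CTSH (0.80), CD9 (0.78), KDM5B (0.78), SLC48A1 (0.77), AARS1 (0.76) and SPRED2 (0.76). Lower in size stood CD79B (0.76), PECAM1 (0.72), ERAP1 (0.67), TXNIP (0.66), MOV10 (0.66), CDKN1B (0.66) and SERPINH1 (0.62). Below those were CPOX (0.62), NFKB1 (0.61), FTH1 (0.61), GARS1 (0.60), ASAH1 (0.57), JUND (0.55) and MT-ND4L (0.46). The last were EIF4B (0.38), MT-ND5 (0.33), ETV6 (0.33), ACACA (0.30), RPS18 (0.30), RPL12 (0.29) and RPL3 (0.28). At the end came SCD (0.27).

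These moved lower in MOLM-13 than in HEL, again with the log2 difference in brackets. Widest here were NEXN (-2.91), CDKN1A (-2.85), CXCR2P1 (-2.14), SLA (-1.55), ANXA1 (-1.49), PADI4 (-1.47) and SCAMP5 (-1.40). These were followed by TNF (-1.36), MFSD2A (-1.35), AKR1C1 (-1.33), VCAN (-1.31), CCL23 (-1.29), CACNA2D3 (-1.24) and CTSA (-1.22). Further on were DAPP1 (-1.21), LGALS1 (-1.15), EPOR (-1.11), RDH10 (-1.10), SDF2L1 (-1.07), MANF (-1.03) and FAM83D (-1.0). Narrower were CDC6 (-0.99), GATA2 (-0.99), BTG2 (-0.98), HSPA5 (-0.95), XACT (-0.94), ACRBP (-0.93) and IER2 (-0.93). Closer to 0 were CDC25A (-0.88), CDC45 (-0.72), TYROBP (-0.70), FKBP4 (-0.68), NOP56 (-0.62), LYZ (-0.62) and LSM3 (-0.60). Nearer still were BAX (-0.59), NDUFA9 (-0.57), NOP58 (-0.54), NFKB2 (-0.48), EIF2S1 (-0.45), NDUFB10 (-0.44) and MEF2C (-0.43). Near the end were STIP1 (-0.42), COX7B (-0.40), EIF5A (-0.39), BOP1 (-0.32) and MT-CYB (-0.32).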

How the results depend on the processing

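Counts are given as genes with a positive difference, genes with a negative one, and opposite movers higher and lower in MOLM-13, against 1242, 1253, 110 and 82. DESeq2 gave 795, 688, 61 and 32. RLE scaling gave 1317, 1171, 123 and 72, and upper-quartile scaling 1368, 1097, 129 and 68. Without the filter on low counts the second set of opposite movers was 51. A size of at least 0.5 in both lines left 7 and 4. Leaving out 1 library gave 849 to 1912, 658 to 1326, 56 to 226 and 30 to 107. At least 1 count moved by over 1.5 times without each HEL library, each MOLM-13 DDX6 shRNA library or MOLM-13 control replicate 1 (1912 and 226 without the last). The share of positive calls was 49.8%, and 63.7% without MOLM-13 DDX6 shRNA replicate 1. The labels do not say that a replicate number marks a shared batch, so the samples were taken to share only a number; same-numbered libraries deviated with r = -0.24 in MOLM-13 and 0.124 in HEL, over genes. The replicate block gave 1077, 1029, 92 and 56 within lines, and 1184, 1182, 108 and 75 over both. Chosen after seeing the data, the crossed replicate block in MOLM-13 gave 1715, 1832, 174 and 167, and removing a GC trend gave 143 opposite movers of the second set. The cause of these shifts was not tested. In 17 alternatives the fitted signs of the 192 opposite movers changed in 0 genes of either line. The 192 were chosen by called signs in these libraries, so this follows largely from the choice and is no separate support. Depth, 2 libraries a group and the unequal spread of the MOLM-13 controls limit small differences.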
